A study of Homo sapiens with 5 samples.

Results

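A set of 10 nuclear regulators of mitochondrial biogenesis was examined in HEK293 cells, an established human embryonic kidney cell line, with and without a single-base variant in SIRT3. The 10 genes were chosen by name: the coactivators PPARGC1B and PPRC1, the corepressor NRIP1, the nuclear receptor ESRRA, the transcription factors NRF1, GABPA, GABPB1 and YY1, and the kinase subunits PRKAA1 and PRKAA2. All 10 had a row in the table, of 16677 genes in all, and all 10 passed the filter on low counts. PPARGC1A, the best known coactivator of the family, was not analysed here.

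Messenger RNA was sequenced in 5 libraries of HEK293 cells kept in basal culture. The 2 wild-type libraries are labelled Control with genotype WT, and the 3 variant libraries carry the T-to-C change of rs11607019. The labels give no treatment, and they do not say whether a library is a clone of its own, a repeated culture or on how many alleles the change lies. P-values therefore measure the spread between these libraries, which may be technical in part. Library totals ran from 17122569 to 17596084 counts. The HEK293 markers VIM, KRT8, KRT18 and PAX2 were present in every library, at 9.94 CPM or more (CPM, the read count scaled to a common library size). Of 12 markers of other cell types, COL1A1 was present, at 28.4 to 46.3 CPM, and the other 11 were not analysed here. SIRT3 itself stood at 28.9 and 29.3 CPM in wild-type 1 and 2, and at 26.5, 15.8 and 30.2 CPM in variant 1, 2 and 3, with overlapping groups and a log2 fold change of −0.27 (SE 0.26).

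Mitochondrial biogenesis needs a nuclear and a mitochondrial genome to be expressed together. Coactivators of the PGC-1 family bind no DNA themselves. They are recruited by factors such as nuclear respiratory factor 1 (NRF1), the GA-binding protein (the ETS factor GABPA with its partner GABPB1), YY1 and the oestrogen-related receptors, which sit at the promoters of respiratory chain genes and of the mitochondrial transcription machinery. AMP-activated kinase (AMPK) senses low energy and acts on this pathway from above, while NRIP1, also called RIP140, opposes it as a corepressor.

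The binding sequences of these factors were sought in the promoters of regulators and targets, and the matches are given first. RefSeq promoter windows (GRCh38.p14, 250 bases before to 50 bases after a start) were available for 9 of the 10 regulators and for 64 of the 78 nuclear respiratory chain genes. Exact matches were sought on both strands to 5 motifs: the palindromic core of NRF1, CCGGAAG for GABP, AAGATGGCG for YY1, TCAAGGTCA for the oestrogen-related receptors, and TGACGTCA, the cAMP response element. No motif of the 5 contains another. The pieces below are each of 30 bases and read 5′ to 3′ on the strand of the gene. They were chosen because they belong to a regulator or to a target described later, TFB1M only within a list. Capitals mark the matched motif, and CTTCCGG is the GABP motif read from the other strand.
GABPA, GABP motif, chr21:25734895-25734924, plus strand: cctccgctctaCTTCCGGccctggctccgc
ATP5PF, GABP motif, chr21:25735066-25735095, minus strand: tgccaggggacCCGGAAGcacttaccctcc
SDHD, NRF1 motif, chr11:112086753-112086782, plus strand: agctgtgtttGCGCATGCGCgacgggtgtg
SDHD, GABP motif, chr11:112086785-112086814, plus strand: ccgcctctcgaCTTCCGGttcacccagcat
POLRMT, NRF1 motif, chr19:633542-633571, minus strand: ggcggcgcggGCGCATGCGCaggcgcgggc
COX17, NRF1 motif, chr3:119677503-119677532, minus strand: gggcctccttGCGCATGCGCtgaagggggc
TFB1M, NRF1 motif, chr6:155314597-155314626, minus strand: gcaggacttaGCGCATGCGCtctcagcacg
PPRC1, YY1 motif, chr10:102133056-102133085, plus strand: ttcaggggccAAGATGGCGgcgcgccgggg
PRKAA1, YY1 motif, chr5:40798146-40798175, minus strand: ttcctggagaAAGATGGCGacagccgagaa

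Among the regulators themselves, 1 of 9 held the GABP motif (GABPA) and 2 of 9 held the YY1 motif (PPRC1 and PRKAA1), and none held the NRF1, oestrogen-related receptor or cAMP motif in these windows. In both YY1 matches the motif lay just after the start, 26 and 12 bases into the transcript. In the respiratory chain list 32.8% of genes held the GABP motif, where 12.2% of all genes with a window did. The YY1 motif was held by 14.1% of the list against 2.14% of all genes, and the NRF1 motif by 6.25% against 1.52%. SDHD, which anchors succinate dehydrogenase in the membrane, had the NRF1, GABP and oestrogen-related receptor motifs in 1 window. A match describes letters and is not a bound site.

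GABPA and ATP5PF, which encodes a subunit of the ATP synthase stalk, lie head to head on chromosome 21. The RefSeq start of GABPA, at 25734972 on the plus strand, lies 82 and 68 bases from the pair of ATP5PF starts on the minus strand. The GABP site printed for GABPA, at 25734906 to 25734912, falls in the windows of both genes. A transcription factor gene and a respiratory chain gene thus share 1 stretch of DNA that holds the factor's own motif.

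**Figure D1:**
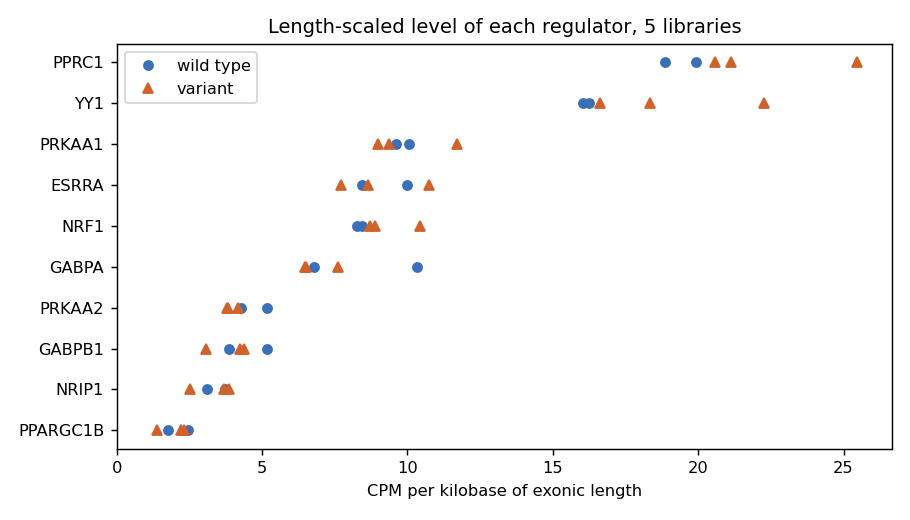
Length-scaled level of the 10 regulators (x axis, CPM per kilobase of exonic length; circles, 2 wild-type libraries; triangles, 3 variant libraries). PPRC1 and YY1 stand above the other 8 in every library, and PPARGC1B is lowest.

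The regulators spanned a wide range of levels within these cells. Scaled to exonic length, PPRC1, a coactivator of the PGC-1 family that is induced by growth signals, was the most abundant at 21.2 ± 2.54 CPM per kilobase (SD over 5 libraries), followed by YY1, a zinc finger factor with a broad role, at 17.9 ± 2.60. PRKAA1 (9.94 ± 1.06), ESRRA (9.10 ± 1.22), NRF1 (8.95 ± 0.865) and GABPA (7.54 ± 1.62) formed a middle group. PRKAA2 (4.25 ± 0.557), GABPB1 (4.14 ± 0.769), NRIP1 (3.38 ± 0.567) and PPARGC1B (2.03 ± 0.442) were lowest. The ranges over the 5 libraries overlapped between PPRC1 and YY1, among the 4 genes of the middle group and among PRKAA2, GABPB1 and NRIP1. They did not overlap between YY1 (lowest 16.03) and PRKAA1 (highest 11.7), between GABPA (lowest 6.48) and PRKAA2 (highest 5.18), or between NRIP1 (lowest 2.51) and PPARGC1B (highest 2.45). Exonic length is that of all GENCODE exons of a gene, so a gene with long unused exons is understated.

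Partners within the pathway kept the same order of levels in all 5 libraries. PPARGC1B, the other PGC-1 coactivator measured, stood at 0.130, 0.0877, 0.0912, 0.108 and 0.0660 times PPRC1 per kilobase in wild-type 1, wild-type 2 and variant 1, 2 and 3. GABPB1, which brings the activation domain to GABPA, stood at 0.502 and 0.571 times GABPA in wild type and at 0.576, 0.654 and 0.471 in the variant. Of the catalytic AMPK subunits, alpha 2 (PRKAA2) made up 35.1% and 29.8% of the length-scaled total of both in wild type, and 26.3%, 28.8% and 29.9% in the variant. The groups overlapped in each of these 3 ratios.

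**Figure D2:**
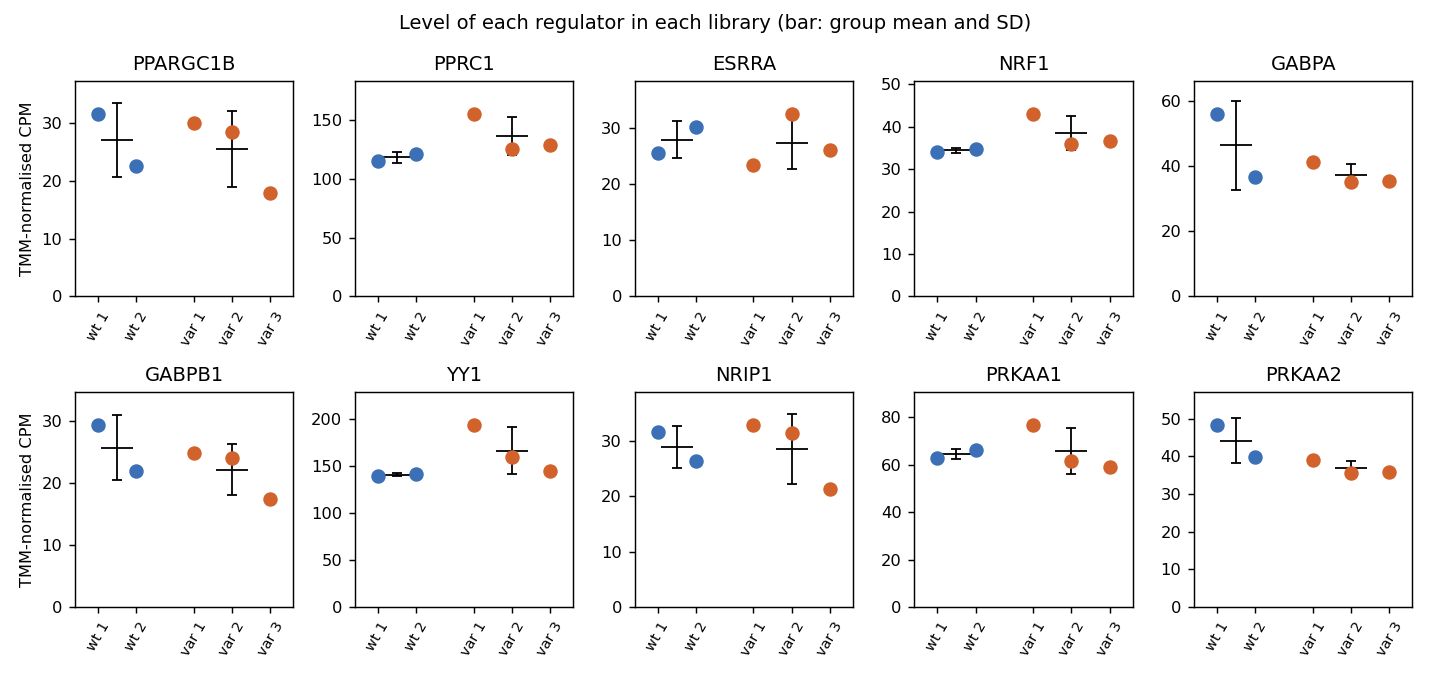
Level of each regulator by library (y axis, TMM-normalised CPM from 0; dots, libraries; bar, group mean and SD, n = 2 wild type and n = 3 variant). PPRC1, NRF1 and YY1 have all 3 variant libraries above both wild-type libraries, PRKAA2 has all 3 below, and the groups of the other 6 overlap.

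The comparison of variant with wild type asked whether the regulators changed with the SIRT3 variant. Of the 10, 0 passed the threshold of 0.05 on the adjusted p of edgeR's quasi-likelihood test, and 0 had an unadjusted p under 0.05. DESeq2's Wald test and limma-voom called 0 of the 10 as well. Over all 16310 genes tested, 0% were called at the adjusted threshold and 7.62% at the unadjusted one, 4.11% higher and 3.51% lower. The log2 fold changes of the 10 ran from −0.32 to 0.24 with a median of −0.025, beside a median of 0.0030 over all tested genes. Their median absolute log2 fold change was 0.18, beside 0.20 over all tested genes. All 10 confidence intervals lay within a 2-fold change in either direction.

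Among the coactivators, PPRC1 (ENSG00000148840, GRCh38 chromosome 10, 102132994 to 102150331) stood at 115 and 122 CPM in wild type and at 155, 125 and 129 CPM in variant 1, 2 and 3. All variant libraries lay above both wild-type libraries, and variant 1 was the highest of the 5. Its log2 fold change was 0.21 (SE 0.16; 95% confidence interval −0.14 to 0.56; edgeR adjusted p 0.751). PPARGC1B (ENSG00000155846, chromosome 5, 149730298 to 149855022), which coactivates oestrogen-related receptors, stood at 31.6 and 22.5 CPM in wild type and 29.9, 28.5 and 17.96 CPM in the variant. Each group thus held a high and a low library and the groups overlapped. Variant against wild type gave −0.087 log2 units (SE 0.26, interval −0.67 to 0.49, edgeR adjusted p 0.948), and 0.18 without wild-type 1.

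NRIP1 (ENSG00000180530, chromosome 21, 14961235 to 15065936), the corepressor, stood at 31.6 and 26.2 CPM in wild type and at 32.9, 31.3 and 21.3 CPM in the variant. Variant 3 was the lowest library and the groups overlapped. Its log2 fold change was −0.019 (SE 0.23, interval −0.53 to 0.49), and without variant 3 it was 0.15. ESRRA (ENSG00000173153, chromosome 11, 64305572 to 64316743), the oestrogen-related receptor through which PGC-1 coactivators act on respiratory genes, stood at 25.6 and 30.2 CPM in wild type and at 23.3, 32.5 and 26.2 CPM in the variant. Its highest and its lowest library were both variants. The difference was −0.030 log2 units (SE 0.20, interval −0.49 to 0.43), and 0.071 without variant 1.

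Of the DNA-binding factors, NRF1 (ENSG00000106459, chromosome 7, 129611714 to 129757082) stood at 34.1 and 34.8 CPM in wild type and 43.1, 35.9 and 36.7 CPM in the variant. The variant libraries lay above both wild-type libraries, by little in variant 2 and 3. The fold change was 0.16 on the log2 scale (SE 0.17, interval −0.23 to 0.55, edgeR adjusted p 0.831). YY1 (ENSG00000100811, chromosome 14, 100238298 to 100282792) stood at 139.8 and 142 CPM in wild type and at 194, 159.9 and 145 CPM in the variant. Again variant 1 was highest and the groups did not overlap. In log2 units the variant was higher by 0.24 (SE 0.16, interval −0.13 to 0.61, edgeR adjusted p 0.728).

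GABPA (ENSG00000154727, chromosome 21, 25734570 to 25772460) had the largest negative value of the 10. It stood at 56.01 and 36.8 CPM in wild type and at 41.3, 35.2 and 35.4 CPM in the variant. Wild-type 1 alone was high, and wild-type 2 lay among the variant libraries. The log2 fold change of −0.32 (SE 0.21, interval −0.79 to 0.15) became 0.018 without wild-type 1. GABPB1 (ENSG00000104064, chromosome 15, 50275392 to 50355408) was also highest in wild-type 1, at 29.4 and 21.96 CPM in wild type and 24.9, 24.1 and 17.4 CPM in the variant. Its lowest library was variant 3, where GABPA was level with variant 2. Its log2 fold change was −0.22 (SE 0.23, interval −0.72 to 0.29), and 0.0087 without wild-type 1. The 413 exonic bases (7.61%) that GABPA shares with ATP5PF on the other strand, 424 (7.47%) that GABPB1 shares with its antisense gene, 562 (6.61%) of NRIP1 and 284 (9.37%) of ESRRA cannot be assigned with certainty, because the strand setting of the counting is not given in the sources used here.

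The AMPK catalytic subunits differed from each other in pattern. PRKAA2 (ENSG00000162409, chromosome 1, 56645322 to 56715335) stood at 48.4 and 39.9 CPM in wild type and at 39.1, 35.5 and 35.9 CPM in the variant. All variant libraries were below both wild-type libraries, though wild-type 2 and variant 1 were nearly level. A log2 fold change of −0.26 (SE 0.17, interval −0.65 to 0.12, edgeR adjusted p 0.724) became −0.12 without wild-type 1. PRKAA1 (ENSG00000132356, chromosome 5, 40759379 to 40798374) stood at 62.9 and 65.9 CPM in wild type and at 76.8, 61.5 and 59.02 CPM in the variant, with overlapping groups. Its log2 fold change was 0.030 (SE 0.17, interval −0.36 to 0.42), and −0.096 without variant 1.

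**Figure D3:**
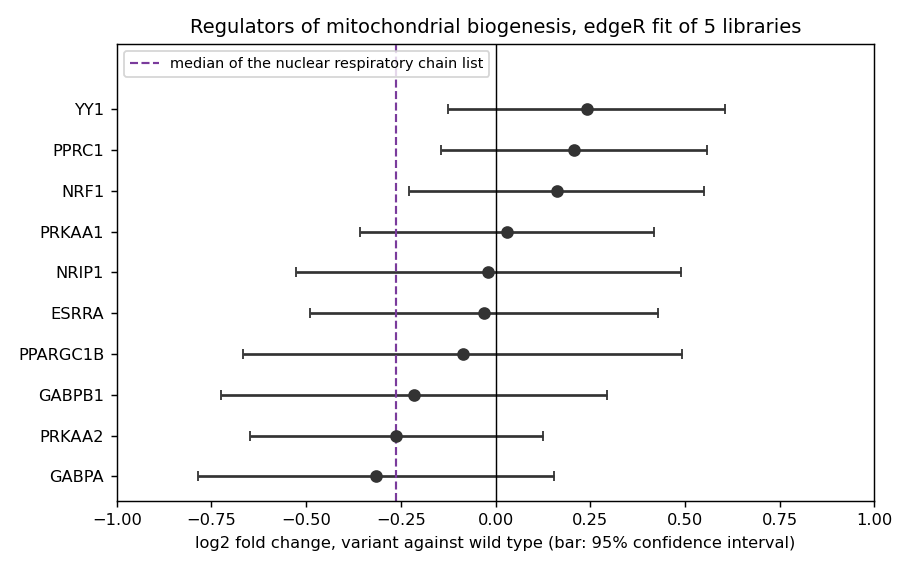
Log2 fold change of each regulator, variant against wild type (points) with its 95% confidence interval (bars), from the edgeR fit of 5 libraries. Every interval includes 0. The dashed line is the median of the nuclear respiratory chain list, −0.26.

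The 3 regulators whose variant libraries all lay above wild type make 3 of 10, beside 11.8% of all tested genes, and PRKAA2 below makes 1 of 10, beside 13%. In both directions that is 4 of 10, beside 24.8%. In these 3 genes variant 1 was the highest library, and without it the log2 fold changes were 0.10 for PPRC1, 0.074 for NRF1 and 0.11 for YY1. PPRC1 had 0.042 once GC content and transcript length were modelled, and those of NRF1 and YY1 were 0.11 each.

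Libraries in this series differ in how levels follow GC content, with Spearman correlations across 10854 genes, which are not independent replicates, of −0.53 and 0.068 in the wild-type libraries and of −0.12, 0.24 and 0.47 in variant 1, 2 and 3. Transcripts of PRKAA2 (35.2% GC), PRKAA1 (35.3%), GABPA (36.4%), NRIP1 (38.8%) and GABPB1 (39.0%) lie below the median of 48.1%. All 5 were below their 5-library mean in variant 3, and 4 of them, all but PRKAA1, were above it in wild-type 1. PPARGC1B, at 50.5% GC, showed the same 2 signs, with 0.30 in wild-type 1 and −0.51 in variant 3, the lowest value of the 10 there. With the correction the log2 fold change was −0.13 for GABPA, −0.10 for GABPB1, −0.11 for PRKAA2 and 0.21 for PRKAA1. It moved PPARGC1B to −0.30 and ESRRA to −0.16.

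**Figure D4:**
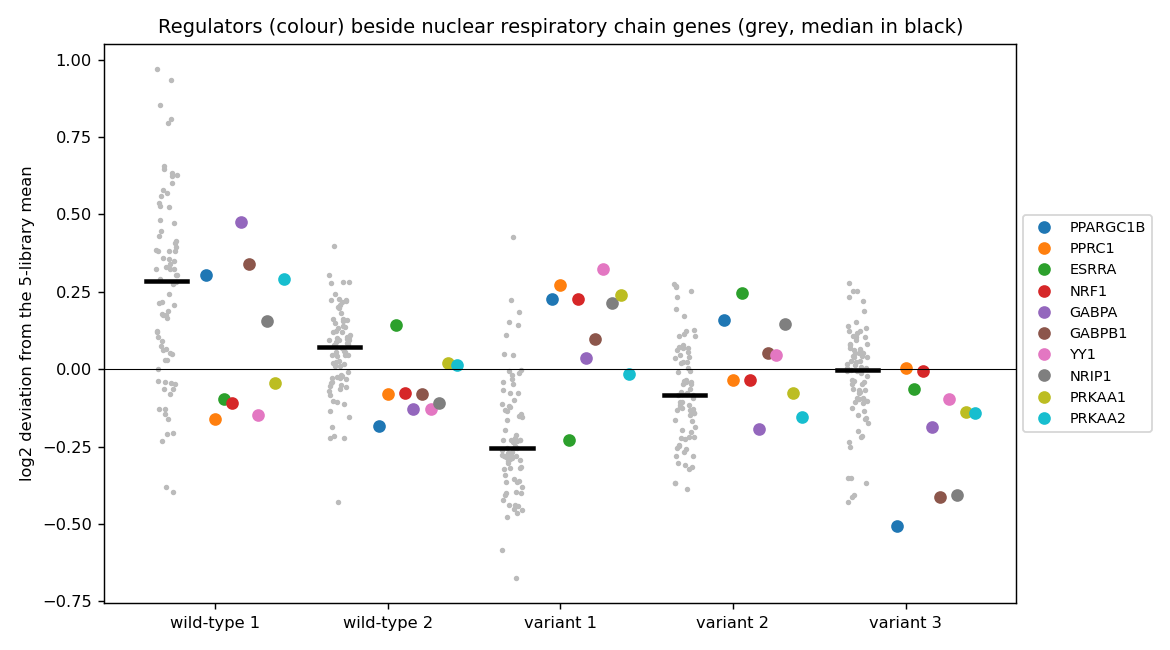
Log2 deviation of each gene from its 5-library mean (y axis), by library (x axis). Grey points are the 78 nuclear respiratory chain genes with their median as a black bar, and coloured points are the 10 regulators. In variant 1 the black bar lies at −0.25 while 8 of the 10 regulators lie above 0.

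The regulators were then set against the respiratory chain, the set of genes they are known to serve. The nuclear list held 78 genes, all tested, of which 69 had lower values in the variant and the median of log2 fold changes was −0.26. Of these 78, 0 passed the adjusted threshold and 29 had an unadjusted p under 0.05, all 29 lower, beside 3.51% of all tested genes lower at that level. Per complex the median was −0.18 for complex I (37 genes), −0.28 for complex II (4), −0.31 for complex III (9), −0.48 for complex IV (11) and −0.31 for ATP synthase (17). With GC content and length modelled these medians were −0.21, −0.28, −0.28, −0.27 and −0.26, so complex IV no longer stood apart. Relative to the mean over libraries, the list median stood at 0.29 and 0.074 in wild-type 1 and 2 and at −0.25, −0.082 and −0.0029 in variant 1, 2 and 3. Wild-type 1 was thus high and variant 1 low, and variant 3 lay nearest to wild-type 2.

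The regulators did not follow this order as a group. Their own median deviation was 0.056, −0.079, 0.22, 0.0060 and −0.14 in the same libraries. In variant 1, where the respiratory chain was lowest, all but ESRRA and PRKAA2 were above their mean. With GC content and length modelled, the regulators' medians were 0.014, −0.036, 0.086, −0.016 and −0.051. Without that correction, a list of 33 other genes tested was likewise highest, by its median, in variant 1 and lowest in variant 3. It held nuclear receptors, coactivators, corepressors, other transcription factors and enzymes. Its medians were 0.0029, −0.070, 0.15, 0.021 and −0.14. PPRC1 deviated by −0.16, −0.080, 0.27, −0.034 and 0.0031 log2 units, NRF1 by −0.11, −0.078, 0.23, −0.034 and −0.0052, and YY1 by −0.15, −0.13, 0.33, 0.046 and −0.095. Without the correction these 3 genes were lowest where the respiratory chain was highest, and highest where it was lowest. With GC content and length modelled all 3 were still highest in variant 1, where the respiratory chain was lowest. PPRC1 was then lowest in variant 2 (−0.15), and NRF1 (−0.088) and YY1 (−0.069) in wild-type 2, while the respiratory chain was still highest in wild-type 1.

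Expressed as a difference from the respiratory chain level of the same library, PPRC1 stood at −0.45 and −0.15 in wild type and 0.53, 0.048 and 0.0059 in the variant. NRF1 stood at −0.40 and −0.15 in wild type, and at 0.48, 0.048 and −0.0024 in the variant. YY1 stood at −0.43 and −0.20 against 0.58, 0.13 and −0.092. In these 3 the groups did not overlap, before or after the correction for GC content and length. On this scale a gene with no change stands higher in the variant, since the level subtracted is lower there, and all 10 regulators had positive differences before the correction. Of all tested genes, 33.3% had every variant library above both wild-type libraries on it, beside 3 of the 10 regulators, and 27.2% after the correction, beside 4 of 10. The regulators' share without the correction is thus near that of all genes. The variant exceeded wild type by 0.49 for PPRC1, 0.45 for NRF1 and 0.52 for YY1, each with a two-sided exact permutation p of 0.2, the smallest that 2 against 3 libraries allow. With the correction the differences were 0.26, 0.33 and 0.33.

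The other 7 regulators overlapped between groups on this scale, with differences from 0.0050 (GABPA) to 0.31 (PRKAA1). After the correction PRKAA1 no longer overlapped, with a difference of 0.44. PRKAA2 followed the respiratory chain most closely of the 10. Its deviations of 0.29, 0.014, −0.014, −0.15 and −0.14 had the sign of the list median in all 5 libraries, with a root mean square difference of 0.13 log2 units. GABPA came next with 0.20, and PPARGC1B was farthest with 0.35. With the correction PRKAA2 was again nearest (0.11, the same sign in 4 libraries), while PRKAA1 was farthest (0.31) and PPARGC1B stood at 0.24.

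In the pair with neighbouring starts on chromosome 21, both genes can be followed library by library. ATP5PF stood at 185 and 143 CPM in wild type and 114, 109.9 and 127 CPM in the variant, with a log2 fold change of −0.49 (SE 0.16; in edgeR p 0.0138 before and 0.616 after adjustment). Both GABPA and ATP5PF were highest in wild-type 1 and lowest in variant 2. The GABPA to ATP5PF ratio per kilobase was 0.114 and 0.0966 in wild type and 0.137, 0.121 and 0.104 in the variant, with overlapping groups.

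Promoter motifs did not separate the respiratory chain genes clearly. Log2 fold changes had a median of −0.26 in the 21 genes with the GABP motif, 20 of them lower, and of −0.22 in the 43 without it, 37 of them lower. The 9 genes with the YY1 motif had −0.26 and the 55 without it −0.24. The 4 with the NRF1 motif (NDUFB4, NDUFA8, SDHD and ATP5F1C) had −0.48 beside −0.23 for the other 60. These medians are descriptions of small groups and were not tested.

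Among the nuclear respiratory chain genes, the smallest p-values belonged to NDUFB3, a small subunit of complex I, and SDHD. NDUFB3 stood at 57.99 and 35.9 CPM in wild type and at 24.9, 25.9 and 25.1 CPM in the variant, a log2 fold change of −0.89 (SE 0.22, edgeR adjusted p 0.616). SDHD stood at 29.2 and 22.7 CPM against 16.3, 15.8 and 17.1 CPM, a log2 fold change of −0.66 with the same adjusted p. In both genes the variant libraries lay close together and below wild type. The smallest p-values among the 9 genes with higher values were those of ATP5F1D (log2 fold change 0.35) and CYC1 (0.19), and neither passed.

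The step between regulators and respiratory chain is the machinery that transcribes and copies mitochondrial DNA, with other classic targets of NRF1 and GABP. Of these 22 genes 0 passed the adjusted threshold and 4 had an unadjusted p under 0.05, all lower in the variant. The median log2 fold change was −0.15, with 17 lower and 5 higher. COX17, a copper chaperone for complex IV, stood at 39.3 and 28.97 CPM in wild type and at 18.9, 17.4 and 22.7 CPM in the variant (log2 fold change −0.80, SE 0.21). CYCS, the electron carrier cytochrome c, stood at 278 and 195 CPM against 160.1, 155 and 155 CPM (log2 fold change −0.59, SE 0.17). The edgeR adjusted p was 0.616 for each, and the groups did not overlap.

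TFAM, which packages mitochondrial DNA and starts its transcription, stood at 140.5 and 99.4 CPM in wild type and 109, 89.04 and 91.6 CPM in the variant. The high value was again wild-type 1 alone, and the log2 fold change was −0.31 (SE 0.19). Its partner TFB2M stood at 13.6 and 9.64 CPM against 9.82, 7.52 and 10.4 CPM, with a log2 fold change of −0.33 (SE 0.26). POLRMT, the mitochondrial RNA polymerase, went the other way, at 131 and 130.4 CPM in wild type and 153, 144 and 147 CPM in the variant (log2 fold change 0.18, SE 0.14). TWNK, the DNA helicase, had 0.12. POLRMT, whose groups did not overlap, was thus higher in the variant like PPRC1, NRF1 and YY1, while TFAM was lower like GABPA. Of the 22 genes, 1 had every variant library above wild type, beside 11.8% of all tested genes. In 9 every one lay below, beside 13%. POLRMT has 66.3% GC and TFAM 38.4%, and log2 fold change rose with GC content across 10854 genes (Spearman 0.40). Whether GC content accounts for these directions was not tested.

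Of the 13 proteins encoded in mitochondrial DNA, 11 had lower transcript levels, the median log2 fold change being −0.17, and 0 passed the adjusted threshold in edgeR's test (2 at an unadjusted p under 0.05). The smallest p-values were those of MT-ATP6 (−0.40) and MT-ND3 (−0.38). Among higher values they were those of MT-ND5 (0.14) and MT-ND4L (0.10). With GC content and length modelled the median was −0.018.

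Nuclear receptors, coactivators, corepressors, other transcription factors and enzymes beside the 10 genes numbered 33 tested of 35 listed. Of these 0 passed the adjusted threshold and 1 had an unadjusted p under 0.05, with a list median of 0.022. RXRA, the common partner of nuclear receptors, stood at 67.3 and 61.6 CPM in wild type and at 67.2, 118 and 87.2 CPM in the variant. Its log2 fold change was 0.49 (SE 0.23), with overlapping groups and variant 2 highest. The lowest p-values among lower genes were those of PERM1 (−0.64), a muscle regulator acting with PGC-1 and present at 1.07 to 1.92 CPM, and MYC (−0.41).

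The upstream kinase list of AMPK subunits, its activators and the mTOR branch had 15 genes tested of 16. Of these 0 passed either threshold in edgeR's test, and the median was −0.12. The lowest p-values were those of FNIP1 (−0.32) and CAB39L (−0.31) among lower genes and of MTOR (0.27) and RPTOR (0.20) among higher ones. Without a test of the lists, these medians stand beside 0.0030 over all tested genes.

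**Figure D5:**
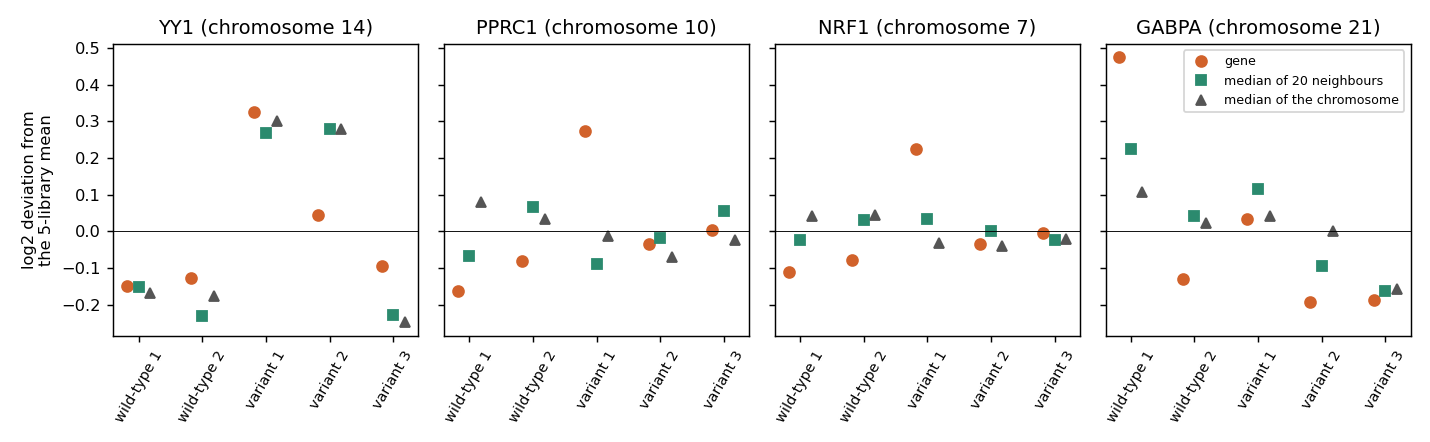
Log2 deviation from the 5-library mean (y axis) for YY1, PPRC1, NRF1 and GABPA (circles), the median of the 20 nearest tested genes (squares) and the median of the chromosome (triangles), by library (x axis). For YY1 both medians lie within 0.102 of the gene in wild-type 1, wild-type 2 and variant 1. YY1 lies lower than both medians in variant 2 and higher than both in variant 3.

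The position of a regulator on its chromosome was compared because whole chromosomes shift between these libraries. YY1 lies on chromosome 14, whose median gene deviated by −0.17 in both wild-type libraries and by 0.30, 0.28 and −0.25 in variant 1, 2 and 3. Set against that median, YY1 stood at 0.020, 0.047, 0.024, −0.23 and 0.15, and the groups overlapped. The higher level of YY1 in the variant was thus no higher than that of its chromosome, whose median log2 fold change was 0.31. The 20 nearest tested genes with a mean log2 CPM above 3, between positions 96279202 and 102362916, had a median of 0.40.

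PPRC1 and NRF1 did not share this. Their chromosomes, 10 and 7, had median log2 fold changes of −0.10 and −0.074. Relative to those chromosomes, PPRC1 stood at −0.24 and −0.11 in wild type and 0.29, 0.034 and 0.027 in the variant, and NRF1 at −0.15 and −0.12 against 0.26, 0.0065 and 0.016. The groups did not overlap in either gene on this scale, which makes 2 of 10 regulators higher, beside 12.3% of 10854 genes measured against their own chromosomes. PRKAA2 had lower values in all variant libraries against chromosome 1 (1 of 10, beside 12.1%), at 0.25 and 0.011 in wild type and −0.013, −0.11 and −0.12 in the variant. GABPA and NRIP1 lie on chromosome 21, whose median was 0.11 in wild-type 1 and −0.16 in variant 3, the libraries in which GABPA was highest and NRIP1 lowest.

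Among the other listed genes, those closest in pattern were sought for the 3 regulators with the widest range over the libraries, by the root mean square difference of log2 deviations over 5 libraries. For PPARGC1B they were CREB1 (0.088), NDUFB6 (0.10) and MT-ATP8 (0.10), where the median of 161 candidates was 0.35. For GABPB1 they were MT-ATP8 (0.037), MEF2A (0.075) and NDUFB6 (0.079), with a median of 0.29. For GABPA they were TFAM (0.040), FNIP1 (0.051) and POLG2 (0.095), with a median of 0.25. TFAM deviated by 0.43, −0.071, 0.064, −0.23 and −0.19 where GABPA deviated by 0.48, −0.13, 0.035, −0.19 and −0.19. With 5 libraries, such likeness is a description only.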

How the data were processed

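Strand-specific mRNA libraries were read as single-end 50-base DNBSEQ reads, per the labels' protocols. The submitters' processing notes name HISAT2, SAMtools, HTSeq and hg38, with versions, annotation and strand setting not given in the sources used here. The deposited file holds raw read counts per Ensembl gene for 16677 genes, none below 3 counts in any library. Identifiers were named from a gene name table (16627) or GENCODE release 29 (46), which on GRCh38 also gave positions, exonic length and GC content. Promoter sequences are RefSeq's (GRCh38.p14).

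Genes were filtered with filterByExpr (16310 kept), scaled by TMM and compared in edgeR 4.0.16 (R 4.3.3) by glmQLFTest, the 5 libraries in a single robust fit with no covariate, with Benjamini-Hochberg adjustment over all tested genes and a threshold of 0.05. Deviations are in log2 CPM (prior count 2) from the 5-library mean. In simulated counts for 16310 genes with 200 changed, recovery was 6% at 1.5-fold, 34% at 2-fold, 100% at 4-fold and 96% at 8-fold. There were 10 false among 128 calls. Every simulated gene had the same dispersion (biological coefficient of variation 19.8%), with no GC or chromosome shifts between libraries, unlike these data. To correct for GC content and length, offsets used splines with 5 degrees of freedom per library. Other alternatives were RLE and upper-quartile scaling, no filter, at least 10 counts in every library, DESeq2 1.42.0, limma-voom (limma 3.58.1), a replicate block and leaving out each library. The same-numbered libraries share only a number.

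The members and gene lists were chosen with earlier results of these data known. Named beside the members are the 2 genes of each list with the smallest unadjusted p in each direction (the 5 complexes as 1 list), genes named for their role, and nearest patterns. ATP5PF was added for its position. Some genes of these lists are not reported here.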

Additional observations from a re-analysis of the deposited data

How the results depend on the processing

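No regulator passed an adjusted p of 0.05 under any of the 13 alternatives, in which the lowest adjusted p of any of the 10 was 0.547. The number of all genes called was 0 in edgeR's test, where 1243 had an unadjusted p under 0.05, and 32 in DESeq2's Wald test. The cause was not tested. Leaving out 1 library gave 0 to 4 calls, with 1 without wild-type 1 and 4 without variant 3; a lone wild-type library was assumed to vary like the other group. The respiratory chain median of −0.26 stayed negative, at −0.17 when wild-type 1 was left out and −0.40 when wild-type 2 was.

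The directions of PPRC1, NRF1, YY1 and PRKAA2 held in all 13 alternatives, with values from 0.042 to 0.27, 0.074 to 0.21, 0.11 to 0.33 and −0.39 to −0.11. Directions turned in the fits without wild-type 1 (GABPA 0.018, GABPB1 0.0087, NRIP1 0.12, PPARGC1B 0.18 and PRKAA1 −0.0036), without wild-type 2 (ESRRA 0.095), without variant 1 (ESRRA 0.071, PRKAA1 −0.096) and without variant 3 (ESRRA 0.00063, NRIP1 0.15, PPARGC1B 0.11). Leaving out each library in turn, the values ran from −0.59 to 0.018 for GABPA, −0.41 to 0.0087 for GABPB1, −0.15 to 0.15 for NRIP1, −0.31 to 0.18 for PPARGC1B, −0.17 to 0.095 for ESRRA and −0.096 to 0.10 for PRKAA1. Directions also turned with the GC content and length correction (NRIP1 0.033). With the replicate number as a block, NRIP1 was 0.16 and PPARGC1B 0.13, and 0 genes were called. In that fit variant 3 had a block of its own, so only the libraries numbered 1 and 2 set the difference. It is thus close to the fit without variant 3. The labels do not say that the numbers pair libraries, and deviations from the group means correlated at 0.15 between the libraries numbered 1 and at −0.21 between those numbered 2, across 10864 genes. The variant minus wild-type differences from the respiratory chain level of PPRC1, NRF1 and YY1 stayed above 0 in 6 alternatives chosen after seeing the data, the lowest being 0.26, 0.30 and 0.33. Those of ESRRA, NRIP1 and PRKAA1 stayed above 0 as well, the lowest being 0.028, 0.069 and 0.13. Those of GABPA, GABPB1, PPARGC1B and PRKAA2 did not. A gene with no change also stands above 0 on this scale, since the respiratory chain level is lower in the variant.

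In the simulated counts, a gene changed 1.5-fold was usually missed with 2 and 3 libraries.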
